A study of Mus musculus with 12 samples.

Results

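All 7 rows named Reg1, Reg2, Reg3a, Reg3b, Reg3d, Reg3g and Reg4 were taken, of 23329 gene rows in all. They were measured in duodenum and spleen of wild type C57BL/6J mice aged 2 months. The mice had received 100 ul of a 1 mg/ml solution of AC H6, described as inducing the lymphotoxin beta receptor (LTbR), or of an isotype control antibody, and tissue was taken after 24 h. The 4 groups were duodenum AC H6, duodenum isotype, spleen AC H6 and spleen isotype, each with 3 libraries. Since no label ties a library to a mouse, a p-value here speaks of library-to-library spread, which may be technical. The question put was which genes changed when LTbR was engaged, and here which of the Reg genes did.

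The Reg genes (regenerating islet-derived genes) encode small secreted proteins with a C-type lectin fold, made by the epithelium of the intestine and by the exocrine pancreas. Reg3b and Reg3g bind bacterial cell surfaces and limit bacteria at the mouse intestinal lining, and Il22 from lymphoid cells, acting through Stat3, is a known inducer of both. LTbR, a relative of the tumour necrosis factor receptors, signals through NF-kB and acts in gut lymphoid tissue and epithelium. Reg1, Reg2, Reg3a and Reg3d are also known from pancreatic acinar cells, where stress brings up Reg3b, the pancreatitis-associated protein. Reg4 marks enteroendocrine and other secretory cells of the gut.

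Total counts ran from 13874091 to 45847467 per library. The extraction protocol speaks of another organ, and the tissue labels were therefore set against markers. Summed enterocyte markers (9 genes) were 25783 to 31131 CPM in duodenum libraries and 45.2 to 53.8 CPM in spleen libraries. Summed spleen and blood markers (8 genes) were 112 to 281 CPM in duodenum libraries and 23755 to 110214 CPM in spleen libraries. CPM are counts divided by the TMM-scaled size of the library, with factors set within each tissue, so that sizes are alike. The duodenum libraries differed widely in pancreatic acinar RNA. Amy2a5, the acinar amylase gene, had 9.53, 2158 and 27027 CPM in AC H6 libraries 1, 2 and 3, against 11.7, 6566 and 79.1 CPM in isotype libraries 1, 2 and 3. High amylase was thus found in AC H6 2, AC H6 3 and isotype 2, on both sides of the comparison. Over the 29 acinar genes together the summed level was 365, 3366 and 37039 CPM in AC H6 libraries, against 375, 9566 and 548 CPM in isotype libraries. Of 26 acinar genes tested, 1 rose and 1 fell, with a median log2 fold change of 1.88, against a median of 0.01 over all genes. By the same test, 34.6% of all genes tested in the duodenum rose or fell. Amy2a5 has near-identical copies, so its own counts are uncertain. The ribosomal precursor row Rn45s held 7.56% of the counts of duodenum isotype 1 and at most 1.18% in the other duodenum libraries.

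In the GENCODE M21 annotation of GRCm38, 6 of the genes lie side by side at chr6:78370657-78468872, 98.2 kb with no other annotated gene, in the order Reg3b, Reg3d, Reg3a, Reg2, Reg1, Reg3g. Reg3d and Reg3g are on the minus strand and the other 4 on the plus strand. Reg4 is apart on the plus strand at chr3:98222156-98236748. Each has 6 exons, and their transcripts are 698 to 1021 bases long. Of all windows of 30 bases along the transcripts, Reg3b and Reg3g shared 6 (0.80% of those of Reg3b), and no other pair shared any, so reads could be split between copies over little of their length. No other gene overlapped any of the 7.

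The RefSeq sequences of the 150 bases before the transcript start (GRCm38.p6) are shown for Reg3g and Reg3b, the called Reg genes that rose most, for Reg3a, which rose less, and for Reg1, the most abundant, which was not called. They lie at chr6:78468875-78469024 (minus strand) for Reg3g, chr6:78370735-78370884 (plus) for Reg3b, chr6:78380559-78380708 (plus) for Reg3a and chr6:78425833-78425982 (plus) for Reg1. For Reg1 and Reg3b these windows fall inside the wider gene spans of GENCODE M21, chr6:78422711-78428667 and chr6:78370657-78373466. The same holds for Reg2, so the RefSeq and GENCODE starts differ for these genes. Capitals mark the TATA box letters TATAAA, the letters TGCCAA, and the STAT-type motif TTCNNNGAA. TATAAA and the other motif without an N were picked after reading the sequences.
Reg3g: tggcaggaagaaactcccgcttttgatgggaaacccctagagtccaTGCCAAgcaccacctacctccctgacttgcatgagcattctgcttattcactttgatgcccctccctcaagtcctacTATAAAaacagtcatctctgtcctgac
Reg3b: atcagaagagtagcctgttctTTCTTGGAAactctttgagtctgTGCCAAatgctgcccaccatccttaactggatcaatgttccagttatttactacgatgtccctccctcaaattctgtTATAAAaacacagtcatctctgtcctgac
Reg3a: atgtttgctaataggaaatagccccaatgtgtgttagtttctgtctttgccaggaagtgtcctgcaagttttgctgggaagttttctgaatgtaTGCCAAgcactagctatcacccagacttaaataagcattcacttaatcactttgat
Reg1: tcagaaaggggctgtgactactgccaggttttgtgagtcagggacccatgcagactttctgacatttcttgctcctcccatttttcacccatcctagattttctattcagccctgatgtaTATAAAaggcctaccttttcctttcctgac
Reg3g and Reg3b were identical at 68.4% of the columns of a global alignment of these 150 bases. That was the highest of the 21 pairs among the 7 genes, whose other values ran from 37.5% (Reg3a and Reg3g) to 59.0% (Reg1 and Reg2). Reg3g has TATAAA starting 27 bases before its start, Reg3b at 29, and Reg1 and Reg2 at 30, while Reg3a, Reg3d and Reg4 have none within 150 bases. TGCCAA lay 104 bases before the start of Reg3g and 106 before that of Reg3b, and 5 of the 7 genes held it. TTCNNNGAA was in this window of Reg3b alone, 129 bases before its start. Over all 27025 promoters of the table, searched on both strands in the same window, 8.08% held TATAAA, 7.15% TGCCAA and 4.17% TTCNNNGAA. The motifs do not overlap one another in the printed sequences, and a match is a description of letters only.

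In the duodenum, Reg3g and Reg3b were the Reg genes of largest called rise after AC H6, with smaller called rises of Reg3a and Reg4. Reg1, by far the most abundant, was not called, nor were the scarce Reg3d and Reg2. In all, 4 of 7 Reg genes tested rose and 0 fell at an adjusted p under 0.05 (edgeR quasi-likelihood test, Benjamini-Hochberg over 15667 genes). Over all genes tested, 34.6% were called in either direction and 18.5% as higher in AC H6. Calls in general were thus frequent in this tissue. In bulk tissue, a change in the number of cells of a type and a change in RNA per cell cannot be told apart. The members span several roles, and the antibacterial pair is given first.

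**Figure D1:**
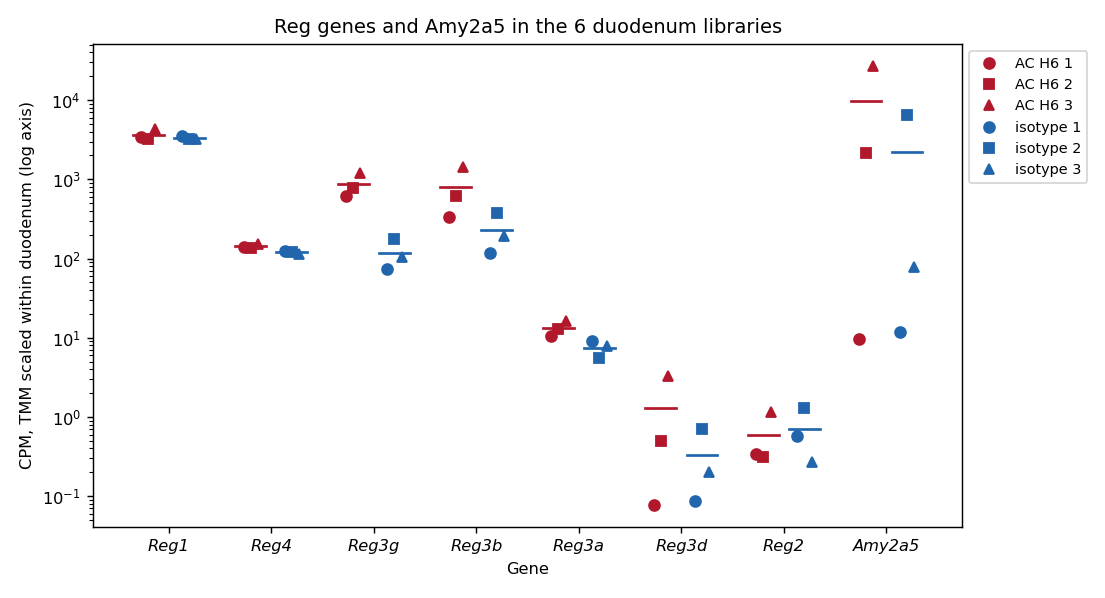
CPM of the 7 Reg genes and Amy2a5 in the 6 duodenum libraries, on a log axis. Points are libraries (shape gives the library number, red AC H6, blue isotype) and bars are means of 3. For Reg3g the AC H6 libraries (613 to 1207 CPM) stand above the isotype libraries (74.0 to 177 CPM), while Reg1 lies between 3199 and 4318 CPM throughout.

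Reg3g, the lectin that binds peptidoglycan of Gram-positive bacteria, had 613, 780 and 1207 CPM in AC H6 libraries 1, 2 and 3, against 74.0, 177 and 104 CPM in isotype libraries 1, 2 and 3. The lowest AC H6 library stood well above the highest isotype library. The counts behind them were 23679, 24785 and 51455 in AC H6 and 1691, 6036 and 3111 in isotype. The log2 fold change was 2.87 ± 0.35 (SE), or 7.30-fold, with an adjusted p of 6.49e-04 (edgeR). By size of rise Reg3g was number 34 of the 15667 genes. AC H6 1 and isotype 1, which had nearly the same Amy2a5 level, differed in Reg3g as 613 and 74.0 CPM. They also differed in Gkn1, a stomach gene, as 755 and 1.31 CPM, and in Rn45s, as 0.21% and 7.56% of counts. Without the 3 high-amylase libraries, which leaves AC H6 1 alone against isotype 1 and isotype 3, the log2 fold change was 2.77. With an acinar score as a covariate it was 2.67 (adjusted p = 4.60e-06, edgeR).

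Reg3b, which acts on Gram-negative bacteria in mice, had 339, 615 and 1419 CPM in AC H6 libraries 1, 2 and 3, against 117, 378 and 191 CPM in isotype libraries 1, 2 and 3. Here the groups overlapped, since AC H6 1 lay below isotype 2. The log2 fold change was 1.79 ± 0.55 (SE), or 3.46-fold, with an adjusted p of 0.0354 (edgeR). Within both groups the order of the libraries by Reg3b was also their order by Amy2a5. The same order held for Reg3g. Calls of Reg3b depended on single libraries. The adjusted p (edgeR) was 0.113 without AC H6 3, where the log2 fold change was 1.06. It was 0.0609 without AC H6 2, 0.0899 without isotype 1 and 0.106 without isotype 3, and DESeq2 gave 0.0621. With the acinar score as a covariate the log2 fold change of Reg3b was 1.31 (adjusted p = 1.25e-04, edgeR), and without the 3 high-amylase libraries it was 1.14 (adjusted p = 8.01e-04, edgeR). The fit without those libraries has 1 AC H6 library, assumed to vary like the 2 isotype libraries. In both fits the change was smaller than over all 6 libraries, and the part of acinar RNA in it was not tested further. In the high-amylase duodenum libraries there were 28478 and 5250 counts of Reg3b per 100000 counts of Amy2a5 in AC H6 2 and AC H6 3, against 5752 in isotype 2. In the spleen libraries of most amylase the same ratio was 628 (AC H6 2) and 104 (isotype 2).

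**Figure D2:**
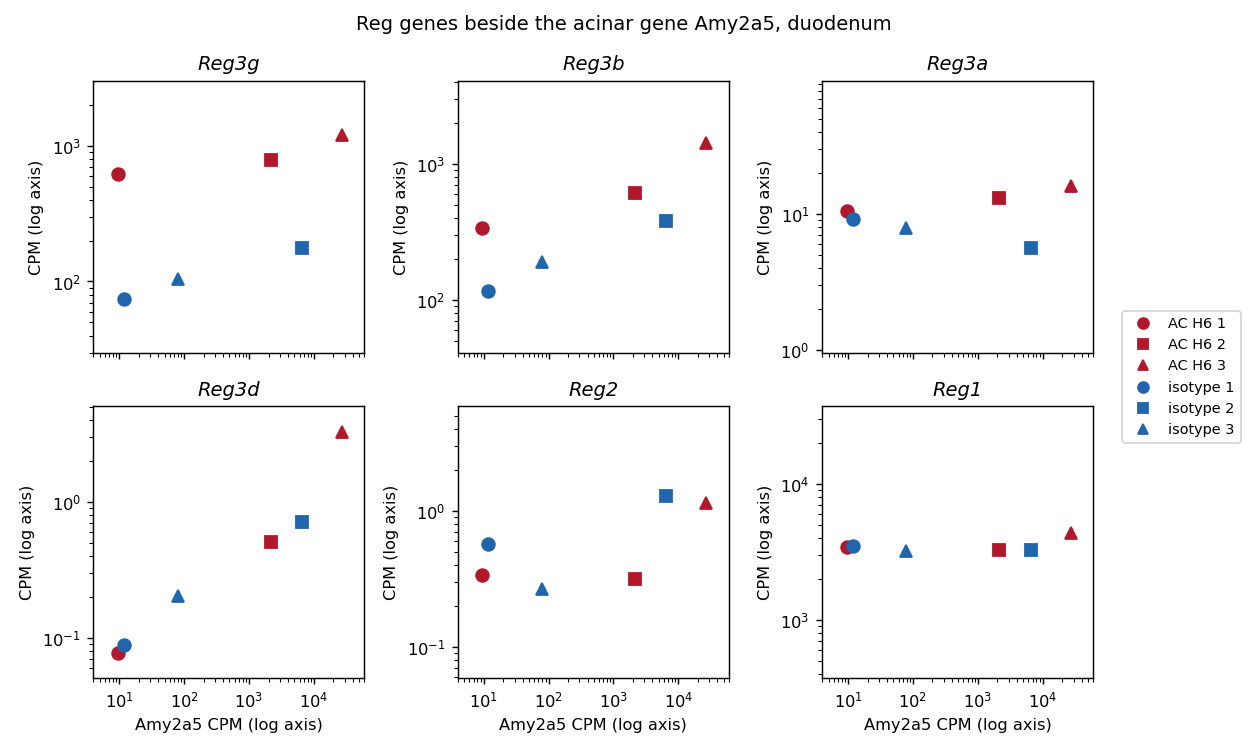
CPM of 6 Reg genes (vertical, log axis spanning a factor of 100 in each panel) against CPM of Amy2a5 (horizontal, log axis) in the 6 duodenum libraries. Reg3d climbs with Amy2a5 across both groups, Reg3g separates AC H6 from isotype at both low and high Amy2a5, and Reg1 lies between 3199 and 4318 CPM, highest in AC H6 3.

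Reg3a, another member of the Reg3 branch, had 10.4, 13.1 and 16.1 CPM in AC H6 libraries, against 9.15, 5.57 and 7.86 CPM in isotype libraries. All AC H6 libraries were above all isotype libraries, though AC H6 1 and isotype 1 lay close. The log2 fold change was 0.82 ± 0.20 (SE; adjusted p = 0.0153, edgeR). Without the 3 high-amylase libraries it was 0.29 (adjusted p = 0.232, edgeR), and the call held in the other 13 alternatives run.

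Reg4, which is known from enteroendocrine and crypt secretory cells, had 140, 136 and 151 CPM in AC H6 libraries, against 125, 120 and 116 CPM in isotype libraries. The groups did not overlap, but the change was small, with a log2 fold change of 0.24 ± 0.07 (SE; adjusted p = 0.0283, edgeR). The call was lost in 6 of 14 alternatives, among them 1 fit of all 12 libraries (adjusted p = 0.250, edgeR) and the fit without the 3 high-amylase libraries (0.182). Leaving out AC H6 1, AC H6 2, isotype 2 or isotype 3 gave adjusted p of 0.0561, 0.0579, 0.0550 and 0.0943 (edgeR). Of 8 enteroendocrine genes, 3 rose (Chgb, Chga and Sct), by 0.35 to 0.47 on the log2 scale. Among all genes tested, 18.5% were called higher in AC H6. The 8 summed to 691 to 733 CPM in AC H6 libraries and 536 to 567 CPM in isotype libraries, and their part in the Reg4 result was not tested.

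Reg1, the pancreatic stone protein gene, had 3436, 3243 and 4318 CPM in AC H6 libraries, against 3495, 3237 and 3199 CPM in isotype libraries. The groups overlapped, with AC H6 3 highest and the other 5 libraries between 3199 and 3495 CPM. The log2 fold change was 0.14 ± 0.10 (SE; adjusted p = 0.292, edgeR). AC H6 3 was also the library of most Amy2a5, and without it the log2 fold change of Reg1 was 0.0084 (adjusted p = 0.969, edgeR).

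Reg3d, a pancreatic member, had counts of 3, 16 and 139 in AC H6 libraries, against 2, 24 and 6 in isotype libraries. Each group had its highest count in its library of highest amylase. The log2 fold change was 1.87 ± 1.12 (SE; adjusted p = 0.227, edgeR), and without AC H6 3 it was -0.39. In the 3 high-amylase libraries there were 23.3 and 12.1 counts of Reg3d per 100000 counts of Amy2a5 in AC H6 2 and AC H6 3, against 10.7 in isotype 2. The ratio differed by little more than a factor of 2 between these libraries, while Amy2a5 itself ran from 68530 to 1152213 counts. Reg2, an acinar member in mice, had counts of 13, 10 and 49 in AC H6 libraries, against 13, 44 and 8 in isotype libraries. Its highest counts were in AC H6 3 and isotype 2, the libraries of most amylase, and its log2 fold change was -0.24 ± 0.63 (SE; adjusted p = 0.795, edgeR). For both genes the spread between libraries of 1 group was wide relative to the change.

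**Figure D3:**
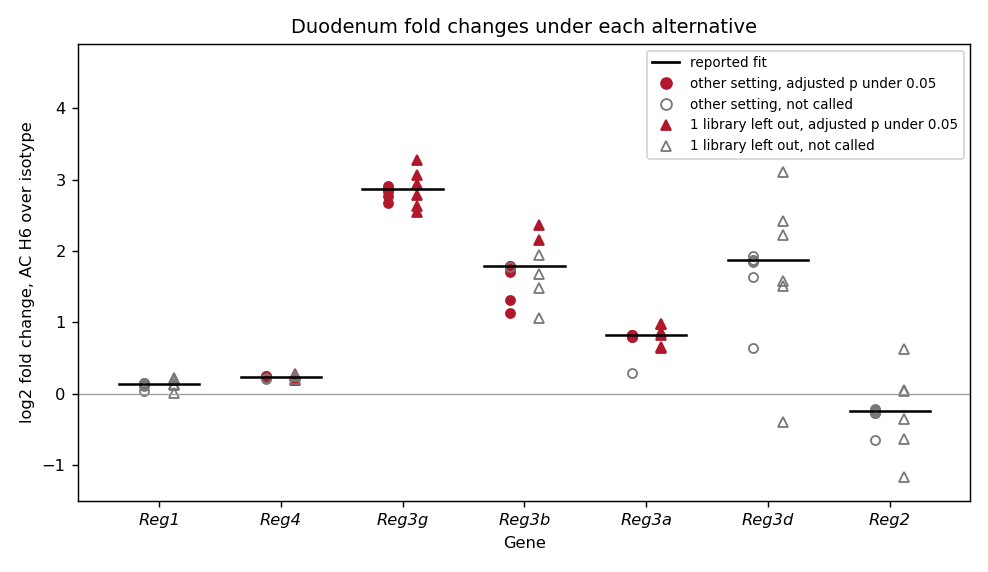
Duodenum log2 fold change (AC H6 over isotype) of each Reg gene under each alternative (circles) and with 1 library left out (triangles), filled red where the adjusted p is under 0.05. The black line is the reported value. Reg3g is red throughout, between 2.55 and 3.28, Reg3b is red in 9 of 14, and Reg3d and Reg2 fall on both sides of 0.

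Compared per length, since longer transcripts gain more counts, Reg1 led in both groups of duodenum libraries. Mean CPM per kilobase of transcript was 4767 ± 745 for Reg1 in AC H6 and 4304 ± 209 in isotype (SD, n = 3 libraries each). After AC H6, Reg3g followed with 1124 ± 397 and Reg3b with 1010 ± 717, whose ranges overlapped. Below them came Reg4 with 139 ± 7.37, Reg3a with 16.01 ± 3.48, Reg3d with 1.64 ± 2.21 and Reg2 with 0.86 ± 0.68 (AC H6, CPM per kilobase), and the last pair overlapped. In isotype libraries Reg3b had 292 ± 172, Reg3g 154 ± 68.6 and Reg4 118 ± 4.46 CPM per kilobase, and Reg3g overlapped with both of its neighbours in this order. Reg3a had 9.12 ± 2.20, Reg2 1.02 ± 0.75 and Reg3d 0.42 ± 0.42 CPM per kilobase in isotype libraries.

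Taken as a pool, the 7 genes held 0.481%, 0.503% and 0.692% of all counts in AC H6 libraries, against 0.352%, 0.388% and 0.367% in isotype libraries. The makeup of the pool differed too. Reg1 was 75.7%, 67.7% and 60.7% of Reg counts in AC H6 libraries, against 91.5%, 82.6% and 88.4% in isotype libraries. Reg3b and Reg3g together were 21.0%, 29.1% and 36.9% of Reg counts in AC H6 libraries, against 4.99%, 14.2% and 8.15% in isotype libraries. Neither share overlapped between the groups. The shares depend on each other, and Reg1 itself was not called. The balance within the antibacterial pair differed as well, with 1.81, 1.27 and 0.851 counts of Reg3g per count of Reg3b in AC H6 libraries, against 0.635, 0.469 and 0.548 in isotype libraries. Each of these 4 measures had an exact two-sided permutation p of 0.1, the smallest that 20 arrangements of 3 against 3 allow, so none could pass 0.05. Within both groups all 4 also followed the order of the libraries by Amy2a5. The pool percent and the share of Reg3b and Reg3g rose with it. The Reg1 share and the counts of Reg3g per count of Reg3b fell with it. The part of acinar RNA in these measures was not tested. The share of Reg4 was 2.12% to 3.08% in AC H6 and 3.07% to 3.27% in isotype libraries (exact permutation p = 0.2).

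**Figure D4:**
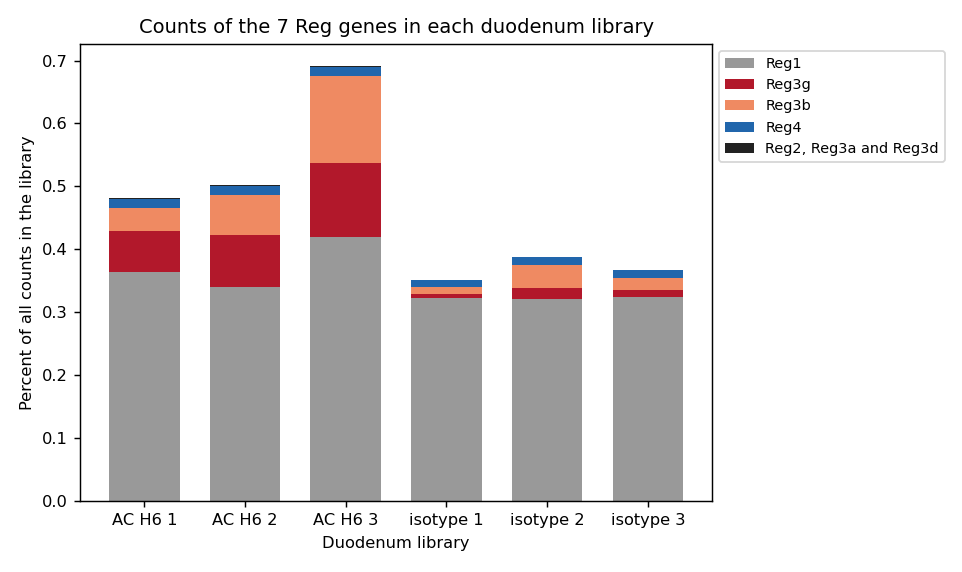
Counts of the Reg genes as a percent of all counts in each duodenum library, stacked by gene. The Reg1 part is of similar height in 5 libraries, and the Reg3g and Reg3b parts are taller in the 3 AC H6 libraries (21.0% to 36.9% of Reg counts) than in the 3 isotype libraries (4.99% to 14.2%).

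In the spleen the Reg genes were scarce and none was called. Only 3 of the 7 had counts enough to be tested, and 0 of 3 were called by edgeR (0 of 3 also at an unadjusted p under 0.05, and 0 of 3 by DESeq2), where 3.98% of all 15270 genes tested were called. Reg3g had 28, 32 and 15 counts in AC H6 libraries, against 6, 23 and 23 in isotype libraries, a log2 fold change of 0.13 ± 0.28 (SE; adjusted p = 0.785, edgeR). Reg3b had 33, 34 and 18 counts in AC H6 libraries, against 15, 21 and 25 in isotype libraries, a log2 fold change of 0.04 ± 0.25 (SE; adjusted p = 0.940, edgeR). Reg1 had 198, 223 and 100 counts in AC H6 libraries, against 79, 277 and 142 in isotype libraries, a log2 fold change of -0.30 ± 0.16 (SE; adjusted p = 0.250, edgeR). Reg3a was at 0 in all 6 spleen libraries, and Reg4 had 1 to 11 counts in each. Reg2 and Reg3d had counts in spleen AC H6 2 (1 and 1) and spleen isotype 2 (15 and 2) alone. Those were also the spleen libraries of most Amy2a5, with 128 and 557 CPM, against 10.99 to 15.8 CPM in the other 4. Reg3d per 100000 Amy2a5 counts was 18.5 in spleen AC H6 2 and 9.90 in spleen isotype 2, near the duodenum values above, but on 1 and 2 counts.

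The difference between the tissues in response to AC H6 was tested by an interaction on all 12 libraries, for the 3 Reg genes tested in both. It was called for 1 of 3, Reg3g, whose log2 fold change was 2.72 ± 0.66 (SE) larger in duodenum than in spleen (adjusted p = 0.0134, edgeR). Over all 16655 genes 20.0% were called. For Reg3b the difference was 1.72 ± 0.99 (adjusted p = 0.252) and for Reg1 0.41 ± 0.20 (adjusted p = 0.159, both edgeR), so a tissue difference was not established for them.

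Under isotype, levels in duodenum stood far above those in spleen. Of the 6 Reg genes tested on the isotype libraries, 6 were higher in duodenum, where 86.0% of 16029 genes were called and 42.2% were called higher in duodenum. The log2 difference of duodenum over spleen was 9.48 ± 0.21 for Reg1, 10.08 ± 0.16 for Reg4, 8.56 ± 0.58 for Reg3b and 7.87 ± 0.45 for Reg3g (SE; adjusted p between 6.12e-10 and 1.89e-06, edgeR). Reg3a, with 633 counts in the 3 duodenum isotype libraries and 0 in spleen, was at least 172-fold higher in duodenum, taking 3 counts over the spleen group as the floor. The call of Reg2 (adjusted p = 0.0413, edgeR) rested on 65 counts in duodenum and 15 in spleen and was lost in 5 of 10 alternatives. Reg3d, with 32 counts in duodenum and 2 in spleen, was not tested.

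The low spleen levels were set beside those of enterocyte genes in the same libraries, on plain totals. Spleen levels as a percent of duodenum levels were 0.126% (AC H6) and 0.204% (isotype) for Reg1, and 0.121% (AC H6) and 0.130% (isotype) for Reg4. For Reg3b they were 0.0982% (AC H6) and 0.415% (isotype), and for Reg3g 0.0776% (AC H6) and 0.605% (isotype). The 9 enterocyte genes ran from 0.123% to 0.724% with a median of 0.159% under AC H6, and from 0.118% to 0.784% with a median of 0.150% under isotype. Cdh17 was the highest under both, and the next were Fabp1 at 0.231% (AC H6) and Apoa4 at 0.207% (isotype). Under isotype, Reg3b and Reg3g thus stood above every enterocyte gene but Cdh17. The spleen levels of Reg1 and Reg4 were thus of the same order as those of genes known from absorptive epithelium. What carried such counts into the spleen libraries was not tested.

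**Figure D5:**
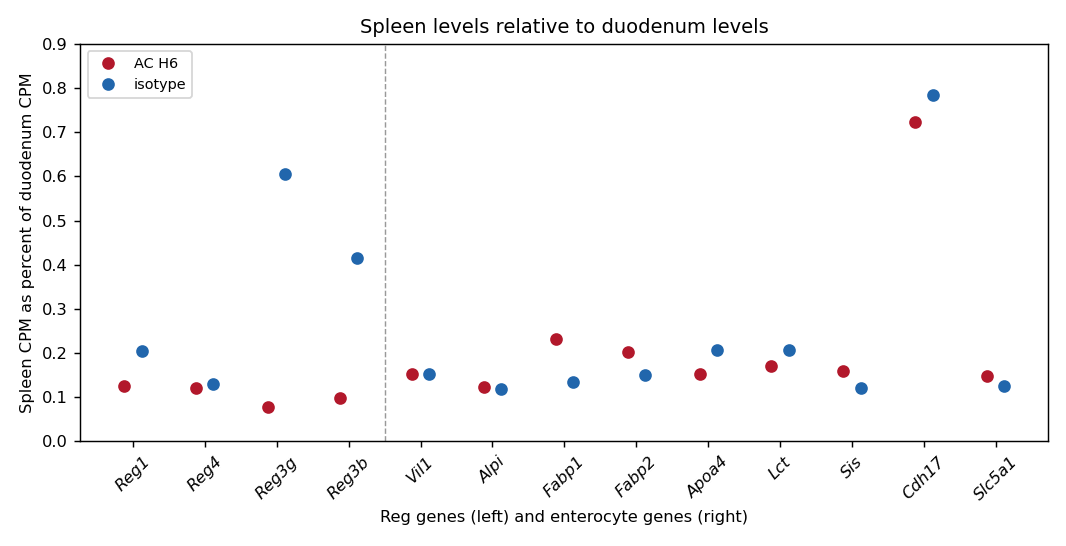
Mean spleen CPM as a percent of mean duodenum CPM under the same treatment, on plain totals, for 4 Reg genes (left of the dashed line) and 9 enterocyte genes (right), each point a ratio of means of 3 libraries. Reg1 lies within the range of the enterocyte genes under both treatments, Reg4 at 0.121% under AC H6 just below their lowest (0.123%), and Reg3g and Reg3b are higher under isotype (0.605% and 0.415%) than under AC H6 (0.0776% and 0.0982%).

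Genes upstream of Reg3b and Reg3g, in a list of 23 cytokine, receptor and Stat3 pathway genes, moved both ways in the duodenum. Of 15 tested, 5 rose, 3 fell and 7 were not called, with a median log2 fold change of 0.11, against 0.01 over all genes. Among all genes tested in the duodenum, 34.6% were called in either direction. Il6st, the shared signal chain of interleukin 6 family receptors, had 105, 109 and 114 CPM in AC H6 libraries, against 53.4, 55.4 and 52.2 CPM in isotype libraries (log2 fold change 1.02 ± 0.06, adjusted p = 1.98e-05, edgeR). Il22ra1, the epithelial chain of the Il22 receptor, had 36.9, 40.8 and 52.0 CPM in AC H6 libraries, against 138, 132 and 162 CPM in isotype libraries (-1.74 ± 0.13, adjusted p = 7.05e-05, edgeR). Osmr, the oncostatin M receptor, averaged 14.3 ± 1.28 CPM in AC H6 and 8.29 ± 1.01 CPM in isotype libraries (SD, n = 3 each) and rose by 0.77 ± 0.11 on the log2 scale (adjusted p = 0.00120, edgeR). The following 3 were picked after their values were seen. Il22 had 4 counts over the AC H6 libraries and 0 over the isotype libraries. Stat3 (log2 fold change -0.13 ± 0.07, adjusted p = 0.159, edgeR) and its target Socs3 (-0.09 ± 0.11, adjusted p = 0.578, edgeR) were not called. In the spleen 0 of 16 genes of the list were called by edgeR, where 3.98% of all genes tested were called.

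Of genes proposed as receptors for Reg proteins, 3 of 3 rose in the duodenum, where 18.5% of all genes tested were called higher. These 3 were chosen with earlier results of these data known. Extl3, described as a receptor for Reg1, averaged 37.7 ± 1.73 CPM in AC H6 and 30.7 ± 1.64 CPM in isotype libraries (SD, n = 3 each; log2 fold change 0.29 ± 0.06, adjusted p = 0.00506, edgeR). Egfr rose by 0.52 ± 0.09 and Cd44 by 0.73 ± 0.13 on the log2 scale (adjusted p = 0.00383 for each, edgeR). In the spleen 0 of 3 were called by edgeR, where 3.98% of all genes tested were called.

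Other epithelial defence genes, a list of 18, also moved both ways. Of 16 tested in the duodenum, 7 rose, 4 fell and 5 were not called, with a median log2 fold change of 0.55. Among all genes tested there, 34.6% were called in either direction. Pigr, which carries IgA across the epithelium, had 2018, 2046 and 2359 CPM in AC H6 libraries, against 4239, 5073 and 4526 CPM in isotype libraries (-1.11 ± 0.08, adjusted p = 5.70e-05, edgeR). Nos2, the inducible nitric oxide synthase, had 6.45, 6.42 and 8.05 CPM in AC H6 libraries, against 0.83, 1.64 and 2.22 CPM in isotype libraries (2.12 ± 0.26, adjusted p = 6.31e-04, edgeR). Bcl3, an NF-kB cofactor, rose by 0.42 ± 0.05 (adjusted p = 7.83e-04, edgeR). In the spleen 5 of 10 tested genes of this list rose, where 315 of all 15270 genes tested were called higher. The 3 of smallest p were S100a9, S100a8 and Nos2, at log2 fold changes of 1.56, 1.52 and 0.81. In AC H6 libraries they averaged 652, 443 and 5.86 CPM in spleen, against 0.92, 0.82 and 6.97 CPM in duodenum. Which spleen cells gave these rises was not tested, and they need not be epithelial.

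Markers of the other cell types that the duodenum pieces could hold are given beside these results. Among all genes tested in the duodenum, 34.6% were called in either direction. Of 9 enterocyte genes, 7 fell and 1 rose (median log2 fold change -0.29). Of 9 Paneth cell genes, 1 rose and 1 fell (median -0.20), and of 5 goblet cell genes, 0 rose and 1 fell (median -0.09). The 2 Brunner gland genes summed to 18046, 21137 and 13410 CPM in AC H6 libraries, against 7457, 13212 and 12235 CPM in isotype libraries, and 1 of 2 rose. The 7 stomach genes summed to 6637, 6965 and 3567 CPM in AC H6 libraries, against 2024, 4278 and 3617 CPM in isotype libraries, and 1 of 6 tested rose. Isotype 1, the library of lowest Reg3g and Reg3b, was lowest in both of these lists, and AC H6 3, the library of highest Reg3g, was not the highest. Gkn1 of the stomach list had 755, 685 and 159 CPM in AC H6 libraries, against 1.31, 354 and 217 CPM in isotype libraries. Isotype 1 was thus nearly without it, which the sums do not show. Of 6 islet genes, 1 was tested and it was not called. Ins2 had 15 counts in AC H6 3 and 162 in isotype 2 and was at 0 in the other 4 duodenum libraries. The part of these cell types in the Reg results was not tested.

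The genes nearest to each Reg gene over the 6 duodenum libraries were found by the root mean square difference between centred log2 CPM, among 11884 candidates. For Reg3g they were Kcnj15 (0.28), Ccl9 (0.37) and Ccr2 (0.40), where the median candidate was at 1.53. The spread of Reg3g about its own mean was also 1.53, so that median mostly gives how far Reg3g itself varied. Genes with a similar difference between the groups lie near Reg3g by the way the measure is made. For Reg3b they were Gp2 (0.25), Zbtb16 (0.42) and Rnase1 (0.43), and Gp2 and Rnase1 are on the acinar list. Gp2 was the 1 gene of that list called higher (log2 fold change 1.80 ± 0.54, adjusted p = 0.0330, edgeR), and 24 of the 26 tested were not called. Gp2 and Rnase1 (1.84 ± 0.80) had smaller standard errors than Pnlip (2.12 ± 2.15) and Prss2 (1.97 ± 2.04) of the same list. Spink3, Clps, Pnliprp2 and Bhlha15 of the list also had standard errors below 0.80. In log2 fold change, Gp2 and Rnase1 lay near the median of the acinar list, 1.88. Whether the nearness of Reg3b to them reflects acinar RNA was not tested. Reg3g and Reg3b differed from each other by 0.69, with 23 candidates nearer to Reg3b than Reg3g was. For Reg3a the nearest were Cd300a (0.15), Slc15a2 (0.15) and Sync (0.16), and for genes that varied little, Reg1 (Cep290, Nup107 and Wdr12, each at 0.05) and Reg4 (Nasp, Cd7 and Nop16, each at 0.02), nearness says little more than that.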

How the data were processed

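RNA-seq counts were available for 12 libraries of duodenum and spleen, 3 in each of 4 groups, grouped by their treatment and tissue labels and numbered as in the titles. Per the labels' protocols, libraries were made with a TruSeq kit, which does not mark strand. The submitters' processing notes name mm10 and the tools STAR 2.3, Trimmomatic, bcl2fastq 2.19 and edgeR. What counted the reads, and on which annotation, is not given in the sources used. For each library the authors deposited raw counts per gene (23329 rows, 2989 at 0 in all), which per the file headers keep reads with several matches. Values of near-identical genes are therefore uncertain.

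From these counts, edgeR 4.0.16 (R 4.3.3) gave TMM factors and the quasi-likelihood F-test after filterByExpr, on the 6 libraries of each tissue, on all 12 for the interaction and on the 6 isotype libraries for the tissue contrast. Adjusted p-values are Benjamini-Hochberg over all genes tested, with calls under 0.05. CPM were scaled within each tissue. No 2 libraries were identical, and libraries of 1 group differed by a chi-square of 24.6 to 243 per degree of freedom. The pipeline was tested on simulated data. Alternatives were RLE factors, no count filter, DESeq2 1.42.0, a replicate block, 1 fit of all libraries, an acinar score, library sizes without acinar, haemoglobin and Rn45s rows, leaving out the 3 high-amylase duodenum libraries, and leaving out each library.

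Members and lists were chosen with earlier results of these data known. All 7 Reg genes and Amy2a5 were named whatever their p, with at most 3 genes per list by smallest p, and the 3 nearest genes of each Reg gene with a mean log2 CPM of at least 1. Of 7 goblet genes, 5 were used, since Muc2 had no row and the row named Clca1 is, by older naming, another gene. Positions are from GENCODE M21, to which 20953 rows (89.8%) matched by symbol, and promoters from RefSeq, with 7 of 7 matched. Standard errors are the log2 fold change divided by the square root of F.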

Additional observations from a re-analysis of the deposited data

Results flagged for a closer look

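The response of Reg3g to AC H6 differed between the tissues. The interaction gave a log2 difference of 2.72 ± 0.66 (SE), duodenum minus spleen (adjusted p = 0.0134, edgeR, on 12 libraries), from a log2 fold change of 2.87 in duodenum and 0.13 in spleen. The spleen value rests on 6 to 32 counts per library. The difference ran from 2.41 to 3.14 over 16 alternatives, with a largest adjusted p of 0.0496. Groups of 3 are too small for the test of single libraries that stand apart.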

How the results depend on the processing

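In the duodenum the Reg3g call held in 14 of 14 alternatives (log2 fold change 2.55 to 3.28). Reg3b kept its call in 9 of 14 (1.06 to 2.36), Reg3a in 13 of 14 (0.29 to 0.98) and Reg4 in 8 of 14 (0.19 to 0.27). Reg1 was never called (0.01 to 0.22). With 1 library left out in turn, the log2 fold change ran from -1.16 to 0.62 for Reg2 and from -0.39 to 3.11 for Reg3d, and in spleen from -0.24 to 0.20 for Reg3b and from -0.043 to 0.42 for Reg3g. The interaction was not called for Reg3b or Reg1 in any of 16 alternatives. The duodenum count of 5428 called genes was 3121 without the 3 high-amylase libraries, which leaves 3 libraries. The spleen count of 608 was 2303 with DESeq2, 1390 in 1 fit of all 12 libraries, and 14 to 1132 with 1 library left out. The cause was not tested. With the replicate block it was 1 in spleen and 5421 in duodenum, where Reg3g was at 2.90. Correlations of same-numbered libraries were 0.40, 0.24 and -0.20 in duodenum and 0.26, -0.13 and -0.03 in spleen. Not every library correlated best with its own number. With 3 libraries in each group, such correlations cannot decide whether the numbers pair libraries. Depth limits Reg2, Reg3a, Reg3d and Reg4 in spleen, where none had counts enough to be tested.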
